A study of Drosophila melanogaster with 4 samples.

Results

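Arm 3L, the left arm of chromosome 3, carried 450 of the 2922 binding peaks listed for the GFP-tagged Lola isoform PJ in late Drosophila melanogaster embryos. The members are every listed peak placed on 3L itself; the separate sequence 3LHet, assembled heterochromatin of the same arm, is not among them. By the labels, ChIP-seq had been made from embryos aged 12 to 24 h of the strain lola-RJ-GFP, with the genotype PBac{y[+]-attP-3B}VK00033. The transgene is described there as the lola-RJ genomic coding region. There were 2 libraries precipitated with a rabbit polyclonal antibody against GFP and 2 libraries of input DNA. The labels give the same transgene for all of them. The extraction protocol names other flies (y; bw cn sp), and the labels do not settle which embryos were used. The labels name no precipitation from untagged embryos, and DNA brought down without Lola cannot be told apart from bound DNA. The list gives each peak a start, an end and a score, and it names no library, so no peak has a replicate error, and the precision of a single score is unknown. The formula of the score is not named in the file. The read depth of the libraries is unknown. Coordinates are those of FlyBase release 5.

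Lola (longitudinals lacking) is a set of transcription factors made from a single gene by alternative splicing. They share an amino-terminal BTB domain, through which such proteins pair with each other, and most end in different zinc fingers that contact DNA. The gene is named for its part in laying down the longitudinal axon tracts of the embryonic nerve cord, and it also acts in axon growth and guidance. VK00033 is a docking site for transgenes that is known to lie on 3L, so the tagged copy would sit on the arm described here; its place was not located among the peaks. Genes and sequence of release 5 were not used here, and the peaks are therefore named by position.

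Peaks on 3L were less often strong and less often wide than peaks on the other large arms, while their density was lower by a margin that did not pass the test. The arm held 18.4 peaks per Mb (95% Poisson interval, 16.8 to 20.2) over the 24.4 Mb from its first to its last peak. On the 4 other large arms, 2L, 2R, 3R and X, 1925 peaks lay over 94.3 Mb, and the density of 3L was 0.90 times theirs (95% interval, 0.81 to 1.00; two-sided exact binomial test, p = 0.051). Peaks with a score of at least 100, called strong below, made up 17 of 450 on 3L, or 3.78% (95% Wilson interval, 2.37 to 5.97%). On the 4 other arms together they made up 150 of 1925, or 7.79% (6.68 to 9.08%; two-sided Fisher's exact test, adjusted p = 0.0040). Peaks at least 1000 bp wide made up 44 of 450 on 3L, or 9.78% (7.36 to 12.9%), against 314 of 1925, or 16.3% (14.7 to 18.0%; Fisher's exact test, adjusted p = 0.0013). These tests count each peak as independent, which close neighbours are not, so their p-values can be too small, and the intervals cover counting error only.

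Set beside each arm in turn, 3L had the lowest share of strong peaks. The share was 6.51% on 3R (Wilson interval, 4.67 to 9.00%), 7.35% on 2L (5.33 to 10.1%), 7.71% on X (5.62 to 10.5%) and 9.68% on 2R (7.34 to 12.7%). The intervals of 3L and of 3R, 2L and X overlap, whereas that of 2R lies wholly above that of 3L. With any one of the other arms left out of the comparison, the gap in share ran from -4.47 to -3.39 percentage points (Fisher's exact test, adjusted p from 0.0021 to 0.021). Per Mb, 3L had 0.70 strong peaks (Poisson interval, 0.41 to 1.11), the lowest of the 5 arms, below 1.18 on 3R (0.81 to 1.66), 1.52 on 2L (1.06 to 2.12), 1.61 on X (1.13 to 2.23) and 2.18 on 2R (1.59 to 2.90). The arm with 15.4% of all listed peaks thus held 8.5% of the 200 strong ones. The share of peaks reaching a score of 50 was also lower, 14.9% on 3L against 18.6%, but this difference did not pass the test (Fisher's exact test, adjusted p = 0.13).

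**Figure D1:**
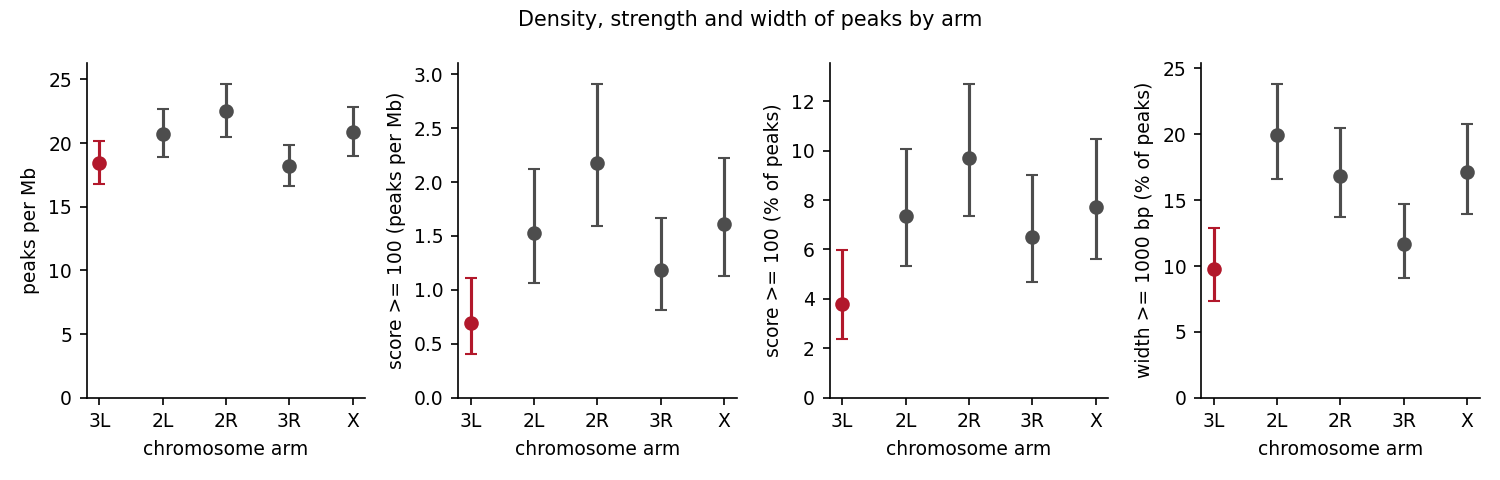
Peaks per Mb, strong peaks per Mb, strong peaks in percent and wide peaks in percent on the 5 large arms; points are values and bars 95% intervals (Poisson for densities, Wilson for shares), with 3L in red. 3L lies among the other arms in density (18.4 per Mb) but is the lowest in strong peaks (0.70 per Mb, 3.78%) and in wide peaks (9.78%).

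Split by score, the density of 3L lay farthest below that of the other arms among strong peaks. Below a score of 12.06, the first quartile of the whole list, 3L had 5.89 peaks per Mb against 5.29, a ratio of 1.11 (95% interval, 0.92 to 1.34). From 12.06 to 19.35 the ratio was 0.89 (0.72 to 1.09), and from 19.35 to 36.9 it was 0.78 (0.61 to 0.97). From 36.9 to 50 the ratio was 1.11 (0.74 to 1.64), and from 50 to 100 it was 0.92 (0.66 to 1.26). At 100 and above it was 0.44 (0.25 to 0.72). The classes do not form a steady trend, and the differences between their ratios were not tested. Median scores were near each other: 17.6 on 3L (middle 50% of peaks, 11.1 to 33.0) against 18.2 on X, 18.3 on 3R, 18.9 on 2L and 19.4 on 2R. The 95th percentile of the score, in contrast, was 92.6 on 3L and between 112.9 and 138.0 on the others. When only peaks with a score of at least 19.35 were counted, 3L had 0.80 times the density of the others (0.68 to 0.93; exact binomial test, p = 0.0036).

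**Figure D2:**
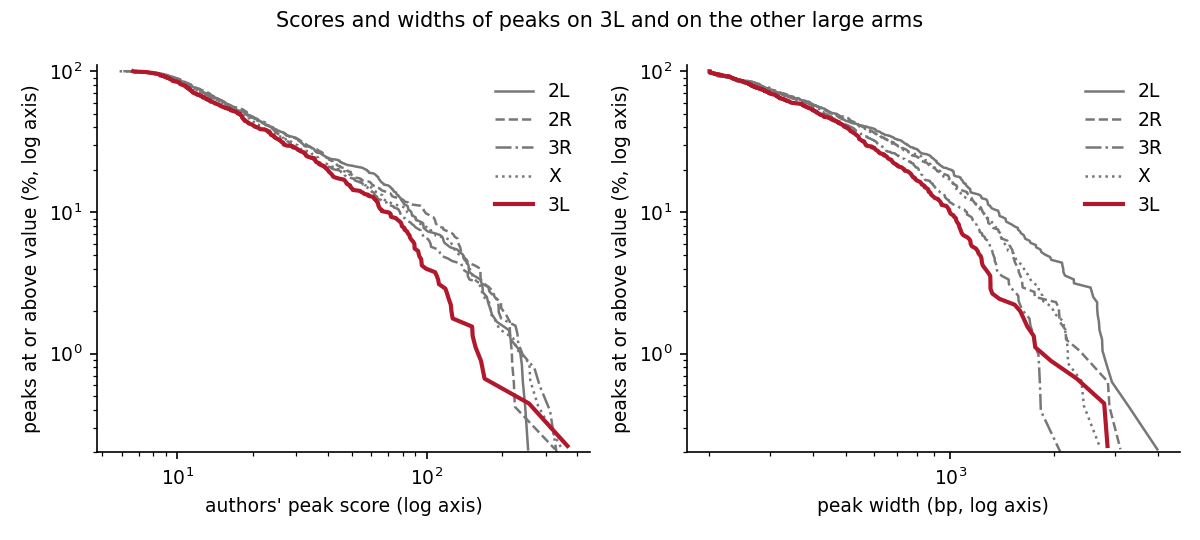
Percentage of peaks at or above a given score (left) and width (right), both axes logarithmic, for 3L (red) and each of the 4 other large arms (grey). The curves lie near each other at low values, but 32.0% of peaks on 3L score below 12.06, against 25.9% on the other arms. At a score of 100 the curve of 3L stands at 3.78% and those of the others between 6.51 and 9.68%. At the far right the score curve of 3L meets them again through the highest score of the list, 366.91.

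Widths differed in the same direction. The median width on 3L was 417 bp (middle 50%, 282 to 650 bp), against 433 bp on 3R, 459 bp on X, 463.5 bp on 2L and 467 bp on 2R. The narrowest width, 201 bp, was shared by all 5 arms and taken by 9 peaks on 3L. Wide peaks were 11.6% of peaks on 3R (Wilson interval, 9.13 to 14.7%), which overlaps 3L. They were 16.8% on 2R, 17.1% on X and 20.0% on 2L, with intervals that begin at 13.7%, 14.0% and 16.6%. These lie above the 12.9% at which that of 3L ends. The share on 2L includes a block of 68 peaks at 21416554 to 21543532, and it was not computed without them. Without that block, wide peaks were 15.1% on the 4 other arms together (Fisher's exact test against 3L, adjusted p = 0.0063). Strong peaks were mostly wide, 10 of 17 on 3L and 104 of 150 on the others, and so they count in both shares. Among peaks with a score under 100, wide peaks were 7.85% on 3L and 11.8% on the others, and this difference did not pass the test (Fisher's exact test, adjusted p = 0.067). At like scores the median width on 3L was 269 against 266 bp below 12.06, 376 against 368 bp from 12.06 to 19.35 and 531.5 against 559.5 bp from 19.35 to 36.9. It was 601 against 785.5 bp from 36.9 to 50, 784 against 944 bp from 50 to 100, and 1121 against 1230 bp for strong peaks. Width at like score was thus slightly larger on 3L in the 2 weakest classes and smaller in the other 4; these values were not tested. Together the peaks of 3L covered 238 kb, or 9.74 kb per Mb of span, against 12.6 kb per Mb on the other arms. By arm the value was 10.1 kb per Mb on 3R, close to that of 3L. It was 12.9 on X, 13.9 on 2R and 14.1 on 2L, the last with its block of 68 peaks.

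The strongest peak of the whole list lay on 3L, at 6117924 to 6119228. It was 1305 bp wide and had a score of 366.91. A second strong peak, at 6166668 to 6167610 with a score of 120.71, had its centre 48.6 kb from it, the closest pair of strong peaks on the arm. The next in strength on the arm lay at 7241907 to 7243667, with a width of 1761 bp and a score of 257.05, which placed it at rank 15 of the list. The peaks of 366.91 and 257.05 were the only ones of 3L among the 25 strongest of the list. After them the scores dropped: the third on the arm, at 11003241 to 11004238, had 170.54 and stood at rank 66.

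The remaining strong peaks were scattered. Near the third lay another at 11198729 to 11199767 with a score of 152.07, and between them a broad peak of 2321 bp at 11111560 to 11113880 with a score of 108.00, so that 3 strong peaks fell between 11003241 and 11199767. Toward the telomere, strong peaks lay at 625971 to 628820 with a score of 127.04 and at 1856594 to 1857388 with a score of 152.85. In the middle of the arm they lay at 12117025 to 12117962 with 122.53, at 14667003 to 14667595 with 124.88, at 16044914 to 16046147 with 165.12 and at 17480098 to 17480869 with 118.84. Another, at 19439174 to 19440457, had a score of 109.76, and the last 4 of the 17 lay in the 2 Mb next to the centromere. Distances between neighbouring strong centres ran from 48.6 kb to 4262 kb, with a median of 1153 kb.

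Strong peaks on 3L mostly stood alone. Of the 17, 12 had no other peak within 10 kb, edge to edge, as did 193 of all 450 peaks (42.9%). Counted by group instead, with peaks up to 10 kb apart joined, 193 of the 284 groups were single peaks. Most places on the arm were thus single, whether strong or not. From the centre of a strong peak to the nearest other centre the median distance was 27.0 kb, against 8.01 kb for the 433 weaker peaks. Among the peaks without a neighbour 6.22% were strong, and among the 257 peaks with a neighbour 1.95%. Median scores were 18.3 and 16.3, respectively. The highest score within each group of several peaks, however, had a median of 31.1, above the 18.3 of peaks without a neighbour. These contrasts within the arm were noticed in the data and not tested. The widest peak of the arm, 2850 bp at 625971 to 628820, was strong. The second widest, 2788 bp at 21017672 to 21020459, had a score of only 66.02. The fourth, 1957 bp at 2585539 to 2587495, had a score of 63.70, and of the 44 wide peaks 34 were not strong.

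**Figure D3:**
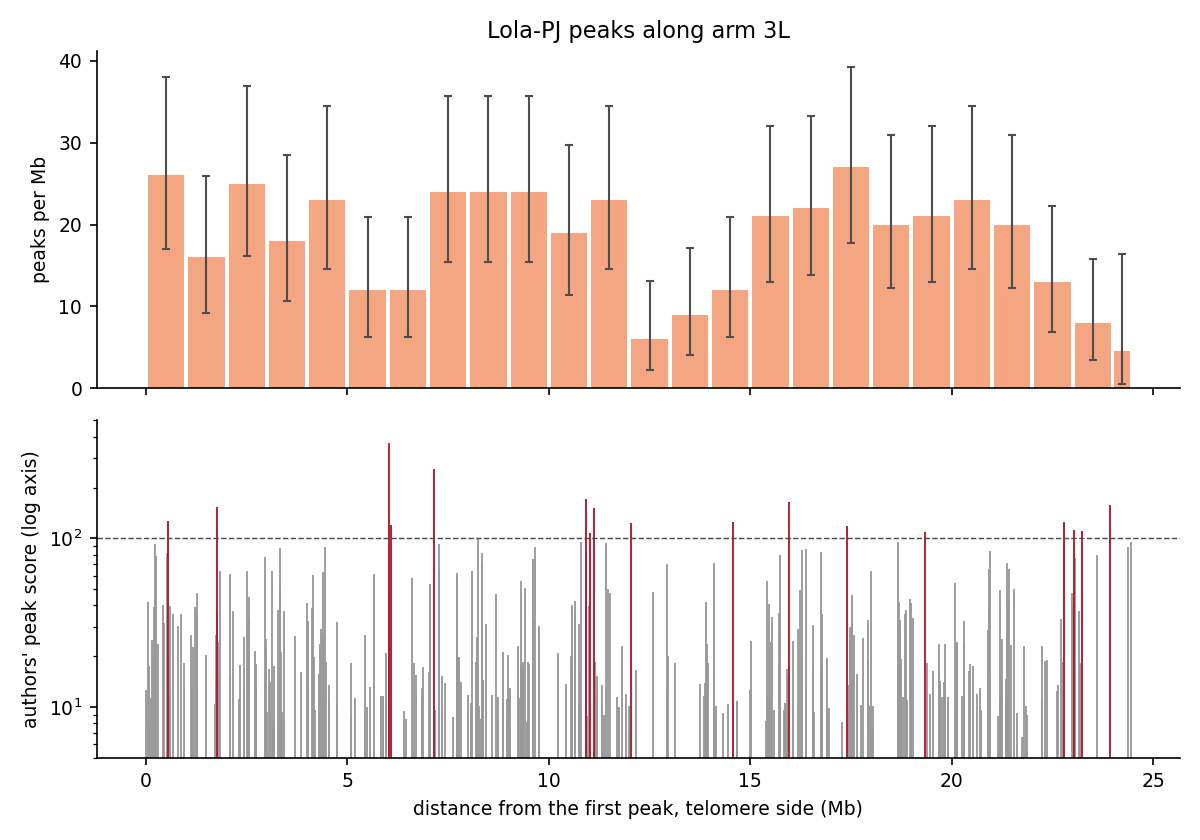
Top, peaks per Mb in bins of 1 Mb counted from the first peak of 3L toward the centromere, with 95% Poisson intervals (the last bin is 0.44 Mb long and is scaled to 1 Mb). Bottom, the score of every peak on a log axis, with the 17 peaks of at least 100 in red. Full bins hold 6 to 27 peaks and the short last bin holds 2. Counts are low from 5 to 7 Mb, from 12 to 15 Mb and at the centromere end.

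Along the arm the peaks were spread over every Mb, with 3 thinner stretches. The 24 full bins of 1 Mb held 6 to 27 peaks, with a median of 20.5 and a mean of 18.7 ± 6.16 (SD over bins), and 17 of them held at least 15. The bins from 5 to 7 Mb after the first peak held 12 each, and the strongest peak of the list lies among them. A second thinner stretch lay in the middle of the arm, where the bins from 12 to 15 Mb held 6, 9 and 12 peaks. The third was the centromere end, where the bins from 22 to 24 Mb held 13 and 8. Divided at its midpoint, the span held 248 peaks on the side of the telomere and 202 on the side of the centromere, with median scores of 17.8 and 17.4 and with 9 and 8 strong peaks. In the first 2 Mb the density was 21.0 per Mb, 1.15 times that of the remainder (95% interval, 0.82 to 1.59; exact binomial test, adjusted p = 0.39). Counting only peaks with a score of at least 19.35, the ratio there was 1.82 (1.17 to 2.75; exact binomial test, adjusted p = 0.011). The median score in these first 2 Mb was 24.5, against 16.8 beyond them, but only 2 of the 42 peaks were strong.

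The last 2 Mb before the centromere held few peaks, and those were stronger than elsewhere on the arm. There were 19, or 9.5 per Mb, against 19.2 per Mb on the remainder, a ratio of 0.49 (95% interval, 0.29 to 0.78; exact binomial test, adjusted p = 0.0027). Their median score was 40.4 against 17.3, and their median width was 738 against 410 bp. Strong peaks were 4 of 19, or 21.1% (Wilson interval, 8.51 to 43.3%), against 13 of 431, or 3.02% (1.77 to 5.09%). Peaks reaching a score of 50 were 8 of 19, or 42.1%, against 13.7%. The contrast in score was seen in the data and was given no test. Covered sequence differed less than the number of peaks, with 7.78 kb per Mb at this end against 9.91 kb per Mb on the remainder. With only peaks of at least 19.35 counted, the density ratio was 0.74 (0.38 to 1.33; exact binomial test, adjusted p = 0.43), and the call was lost. With an end of 4 Mb it was 0.76 (0.56 to 1.00; exact binomial test, adjusted p = 0.096).

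Peak by peak, scores at the start of this end were mostly lower than those near its close. From 22715871 to 22735221 lay 2 peaks with scores of 12.41 and 13.54. A pair at 22815453 to 22818281 had scores of 33.04 and 18.55, and the peak at 22864098 to 22864445 had the lowest score of the end, 8.41. Then followed a strong peak at 22887426 to 22888351 with a score of 125.60.

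The sole group of 4 within these last 2 Mb lay at 23088474 to 23092953, with scores of 47.42, 11.07, 14.63 and 40.38. Behind it stood a strong peak at 23118201 to 23119321 with a score of 111.89, then a peak at 23143018 to 23144340 with a score of 76.30. The 2 weaker ones at 23251479 to 23252049 and 23272020 to 23272586 had scores of 36.90 and 18.22. A strong and wide peak of 1671 bp lay at 23330846 to 23332516 with a score of 111.18. Beyond it the peaks were single, and each had a score of at least 79.47. Their places were 23707602 to 23708364 with a score of 79.47, 24020654 to 24021853 with 156.96, 24457236 to 24457973 with 89.21 and 24529063 to 24530656 with 95.23. The last Mb thus held 4 peaks with a median score of 92.2 and no peak narrower than 738 bp, whereas the first peak of the arm, at 90818 to 91038, was 221 bp wide with a score of 12.64.

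Higher scores at the centromere end were found on all 5 arms, and a lower density there on 3L and X. On 2R the median score was 26.4 in the last 2 Mb and 18.9 on the remainder, on 3R 26.4 and 17.7, on X 23.7 and 18.1, and on 2L 24.8 and 16.6. Without the block of 68 peaks given below, the median at this end of 2L was 21.8. The value for X rests on 12 peaks. The gap in median was widest on 3L, but its share of strong peaks at this end, 21.1%, was near the 21.9% on 2R. That share was 16.7% on X, 12.0% on 3R and 8.06% on 2L (17.9% without the block), each above the remainder of its arm. These differences in score were not tested. Density at this end was 0.27 times that of the remainder on X (95% interval, 0.14 to 0.47), an interval that overlaps that of 3L. It was 1.42 times on 3R (1.04 to 1.90), 1.49 times on 2R (1.13 to 1.94) and 3.69 times on 2L (2.98 to 4.54), where a single block of 68 peaks at 21416554 to 21543532 lies; without the peaks of that block it was 1.67 times (1.23 to 2.21). With the 2 Mb at the centromere left out on every arm, 3L had 0.99 times the density of the others (0.89 to 1.10; exact binomial test, p = 0.87), and strong peaks were 3.02% against 7.04% (Fisher's exact test, adjusted p = 0.0063). Copy number and the uniqueness of the sequence near the centromere were not tested.

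**Figure D4:**
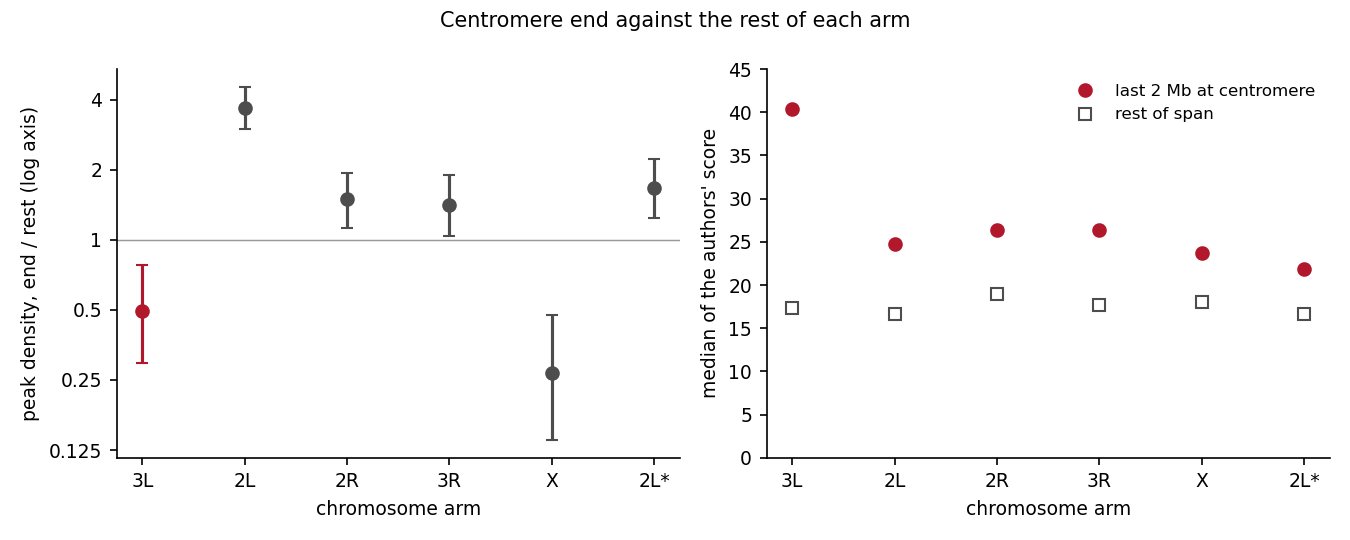
Left, peak density in the 2 Mb at the centromere end divided by that on the remainder of each arm (log axis, 95% intervals; 2L* is 2L without its block of 68 peaks). Right, median score at that end (filled circles) and on the remainder (open squares): 3L has a density ratio of 0.49 and medians of 40.4 and 17.3, and every arm has the higher median at the centromere end.

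By the median, peaks on 3L were spaced much as on 3R and more loosely than on 2R, X and 2L. Neighbouring centres on 3L were a median of 22.0 kb apart (middle 50%, 5.12 to 67.1 kb), close to 22.8 kb on 3R. The medians were 18.8 kb on 2R, 14.6 kb on X and 13.7 kb on 2L. Distances of at most 10 kb made up 163 of 449 on 3L, or 36.3% (Wilson interval, 32.0 to 40.8%), against 39.5% on the other arms (Fisher's exact test, adjusted p = 0.29). By arm this share was 33.6% on 3R, 38.4% on 2R, 41.6% on X and 44.8% on 2L, which has the block of 68 peaks. With a limit of 5 kb the shares were 24.7% and 30.6% and the difference passed the test (Fisher's exact test, adjusted p = 0.021). After peaks up to 1 kb apart had been joined, the share within 10 kb was slightly higher on 3L, at 26.4% against 24.2% (Fisher's exact test, adjusted p = 0.53). Gaps of at most 200 bp between neighbours were 21 of 449 on 3L, 30 of 506 on 3R, 33 of 466 on X and 39 of 474 on 2R. They were 52 of 475 on 2L, which has the block of 68 peaks. These counts were not tested. Joining up to 1 kb reduced the 450 peaks to 395, and the density ratio of 3L to the other arms became 0.99 (exact binomial test, p = 0.82).

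Dense stretches on 3L held up to 8 peaks. When neighbours separated by at most 10 kb were grouped, the arm had 284 groups, counting single peaks, of which 9 held 5 or more peaks, together 11.6% of the peaks. The other arms had 9 such groups on 2R (11.4% of peaks), 8 on X (12.4%), 8 on 2L (23.3%, with its block of 68) and 7 on 3R (7.50%). The largest lay at 21000805 to 21020459, with 8 peaks in 19.7 kb that covered 33.9% of it. Its scores in order were 8.77, 15.58, 28.81, 8.08, 10.23, 38.71, 27.18 and 66.02. It ended with the second widest peak of the arm, and none of its peaks was strong. For comparison, the largest groups held 7 peaks on 2R, 7 on 3R, 14 on X and 68 on 2L.

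The second group, at 17550282 to 17567296, held 7 peaks and had no score above 29.98. Its scores were 13.50, 8.51, 11.24, 21.36, 24.46, 29.98 and 24.74. The third, at 615165 to 639591, was built around the widest peak of the arm, with scores of 12.42, 81.45, 127.04, 13.18, 21.04 and 12.25 in order. Another group of 6, at 7797939 to 7809145, had a highest score of 62.69 and a median of 21.6. These 3 stretches differ in make-up: no peak of the second reached a score of 30, and the third holds a strong peak and, on one side of it, a peak of 81.45.

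Groups of 5 lay at 5 places. Those at 8434821 to 8450822 and 15802704 to 15825595 had highest scores of 81.34 and 79.23. The one at 18009522 to 18023005 reached 32.67. Those at 9439970 to 9459353 and 19888646 to 19901679 held weak peaks alone, with highest scores of 18.54 and 14.11. Of the 12 groups of 4, the one with the highest summed score lay at 1850532 to 1865454 and held the strong peak of 152.85.

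Windows of 100 kb counted the peaks without joining them. Of the 244 complete windows, 77 held no peak and 60 held a single one, while 25 windows with at least 5 peaks (10.2%) held 36.5% of the peaks in windows. The fullest were 7790818 to 7890817 and 20990818 to 21090817, with 10 peaks each. Windows at 11190818 to 11290817 and 17490818 to 17590817 held 9 each, and the window at 590818 to 690817 held 8. The variance of the counts was 2.32 times their mean on 3L, near 2.17 on 3R, 2.38 on 2R and 2.65 on X, and below 7.83 on 2L, which has the block of 68. Counts on 3L were thus more uneven than those of peaks placed independently at random, for which the ratio is near 1. They were about as uneven as on 3R, 2R and X.

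**Figure D5:**
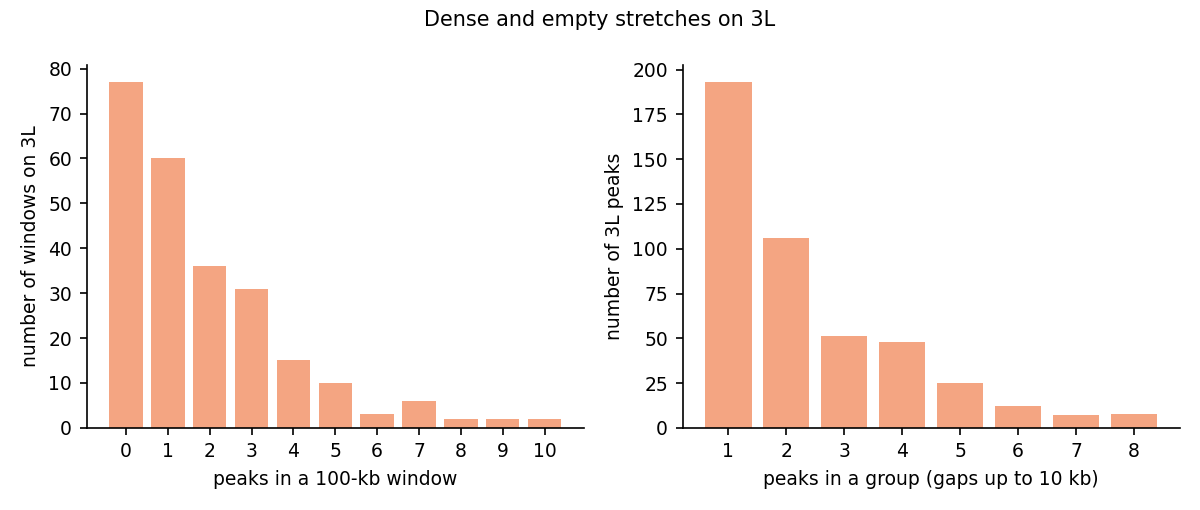
Left, number of 100-kb windows of 3L by the number of peaks they hold; right, number of 3L peaks by the size of the group they belong to (gaps up to 10 kb). Of 244 windows 77 are empty and the fullest hold 10 peaks; 193 of 450 peaks have no neighbour within 10 kb and the largest group has 8.

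Empty windows were about as common on 3L as elsewhere, within the error of the counts. Windows without a peak were 31.6% on 3L (Wilson interval, 26.1 to 37.6%) against 30.3% on the other arms (Fisher's exact test, adjusted p = 0.70). With weaker peaks than 19.35 left out, the shares of empty windows were 54.5% and 47.0%, which passed the test narrowly (Fisher's exact test, adjusted p = 0.0497). Gaps of 300 kb or more numbered 15 on 3L, against 11 on 2L, 11 on 3R, 7 on 2R and 7 on X. Gaps of 200 kb or more ordered the arms differently, with 25 on 3L, 31 on X, 30 on 3R, 28 on 2L and 16 on 2R; neither count was tested. The 10 longest gaps of 3L added up to 4.36 Mb, or 17.9% of the span, against 14.9 to 18.2% on the others.

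The longest gap, 616 kb, lay at 13222024 to 13838492 in the middle of the arm. It was followed by 608 kb at 18141859 to 18750187 and 470 kb at 9847769 to 10318177. Longer gaps were found on 2L (665 kb) and on 3R (869 kb). The peaks on both sides of the longest gap were weak, with scores of 18.30 and 13.62, and those beside the second had 10.17 and 12.55. In contrast, the fourth gap, 435 kb at 24021854 to 24457235, and the eighth, 375 kb at 23332517 to 23707601, lie in the last 2 Mb and are bordered by peaks with scores of 156.96 and 89.21 and of 111.18 and 79.47.

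The fifth gap, 427 kb at 12259517 to 12686170, lies near the longest, and between the start of the one and the end of the other there were only 5 peaks in 1.58 Mb, or 3.17 per Mb. They had scores of 48.31, 11.96, 70.54, 19.94 and 18.30. None was strong, but strong peaks were only 3.78% of all peaks on 3L, and 5 peaks are too few to show a difference. A strong peak of 122.53 lay outside the stretch, at 12117025 to 12117962, in the same 1-Mb bin as its start. The remaining gaps among the 10 longest lay at 15098146 to 15487619 (389 kb), 21948035 to 22332816 (385 kb), 4840962 to 5169393 (328 kb) and 17044258 to 17372640 (328 kb). Runs of at least 3 empty windows numbered 8. The longest, of 5 windows each, lay at 13290818 to 13790817 and 18190818 to 18690817, and a run of 4 lay at 9890818 to 10290817. Runs of 3 lay at 12290818 to 12590817, 12690818 to 12990817, 21990818 to 22290817, 23390818 to 23690817 and 24090818 to 24390817.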

How the data were processed

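Per the labels, 2 GFP ChIP and 2 input libraries were made. MACS2, BWA and CASAVA (versions 1.7.0.3 and 1.7.0.2) and the build BDGP5 are named in the submitters' processing notes; the sources used here give no settings, cut-offs or pooling. Per the file headers, coordinates are of release 5, and the deposited score of each peak is the authors' value, used only within the list. The other deposited columns are start and end. Here, peak counts were compared per span (first to last peak of an arm, since arm lengths were not used) by exact binomial tests, adjusted by Benjamini-Hochberg over 4 pairs of arms or 2 ends, and shares by Fisher's exact tests adjusted over 4 tests. Windows were complete 100-kb windows from the first peak. Medians were not tested. The tests were tried on simulated lists of peaks placed independently and uniformly, which cannot show how the tests behave on clustered peaks. Python 3.11.15, SciPy 1.17.1, NumPy 2.4.6 and pandas 2.3.3 were used. Named regions were the 15 strongest and 5 widest peaks, the 10 largest groups, the 5 fullest windows, empty runs of at least 3 windows, the 10 longest gaps, the peaks of the last 2 Mb, and the first and last peak; 1 further strong peak, the peak on 3LHet and the block on 2L were named after their values were seen. Members, lists and tests were chosen with earlier results of these data known. The reference gene list is of release 6 and was not used.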

Additional observations from a re-analysis of the deposited data

Results flagged for a closer look

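The sequence 3LHet, outside the comparisons of the large arms, held 16 peaks. Their median score was 60.8 and their median width 595.5 bp, and 4 of them reached a score of 100, a share of 25% (95% Wilson interval, 10.2 to 49.5%). The highest, 275.89, belonged to a peak at 1396120 to 1397478. The values drew attention as signal in sequence that no comparison above uses. They lie nearer those of the last 2 Mb of 3L (median score 40.4, 21.1% strong) than those of the remainder of 3L (17.3 and 3.02%); this was not tested.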

How the results depend on the processing

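Of 77 alternatives, 50 kept the direction and side of the threshold, or the value within its limits. The lower shares of strong and of wide peaks kept their direction in all alternatives run (9 and 10); the calls were lost only at a score of 50 (-3.76 points) and, for width, among peaks under a score of 100 (-3.98 points, chosen after seeing the data, as was leaving out an arm). Density against the other arms passed at 0.80 among peaks of at least 19.35 and at 0.85 with chromosome 4 included. Against 2L the ratio, 0.89, was 0.78 at that score (passing), and it reversed to 1.05 with joining up to 1 kb, 1.03 without the block on 2L and 1.14 without centromere ends. Against 2R, 0.82 (exact binomial test, adjusted p = 0.0097) lost its call at 0.89 with joining up to 1 kb and at 0.89 without centromere ends. Against 3R, 1.01 reversed to 0.90, and against X, 0.88 passed at 0.81, both at a score of at least 19.35. Close spacing reversed to 2.16 points with joining up to 1 kb and 0.47 points without centromere ends. It shrank to -1.12 points without the block on 2L. It passed at -5.84 points with 5 kb, a limit not run without that block. Empty windows reversed to -0.85 points without centromere ends and passed at 7.54 points at a score of at least 19.35. The centromere-end ratio lost its call at 0.74 at that score and at 0.76 with 4 Mb; the telomere-end ratio passed at 1.82. Medians moved with the set of peaks: spacing to 28.7 kb (joined) and 60.8 kb (score of at least 19.35), width to 485 and 624 bp, and score to 37.8 in the latter set, by its construction. There the longest gap was 957 kb and the largest group 4. The cause of the other changes was not tested. No paired analysis was possible because peaks carry no values of single libraries, and no replicate could be left out. Depth is unknown, which limits every single score.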
